A study of Mus musculus with 24 samples.

Results

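The genes that encode the proteins of the cytosolic ribosome were described across 24 libraries of mouse embryonic stem cells. The members were the genes whose symbol is Rpl or Rps followed by a number and at most the letter a or x, together with Rpsa, Rplp0, Rplp1 and Rplp2. This rule used symbols and no measured value. It took 76 of the 23762 symbols in the count table, of which 46 name proteins of the large (60S) subunit and 30 name proteins of the small (40S) subunit. All 76 passed the filter on low counts that left 16067 genes to test. The symbol rule does not reach every such gene: Rps3a1, Fau and Gnb2l1 also encode proteins of the ribosome or bound to it.

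The cells were ES-E14TG2a, a mouse embryonic stem cell line, and each of 6 groups had 4 libraries. The 2iL group (2IL in the labels) was kept on gelatin in serum-free N2B27 medium with LIF, 3 µM CHIR99021 and 1 µM PD0325901, which hold the cells in the naive state of pluripotency. The EpiLC group (EPI in the labels) was moved to fibronectin at 15 µg/ml with bFGF at 12 ng/ml and activin at 20 ng/ml for 48 hr, so that the cells left the naive state toward epiblast-like cells. In each state, 1 group received 0.5 mM succinylacetone (SA) for 48 hr, and 1 group received SA together with 10 µM hemin (H). SA inhibits delta-aminolevulinic acid dehydratase, an early enzyme of heme synthesis, and hemin supplies heme from outside the cell, so the comparisons ask what loss of heme synthesis does in the naive state and during its exit, and what hemin returns. No group differed in genotype, and the sources used here do not say whether the 4 libraries of a group came from separate cultures, so every p-value measures the spread between these libraries, which may be technical. Each library came from the whole culture, so a smaller share of cells of 1 kind and less RNA per cell cannot be told apart.

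Ribosomal proteins are made in near equal numbers, since each ribosome carries a single copy of almost every one, and growing cells spend much of their mRNA and translation on them. Their mRNAs are short and stable, and most begin with a C followed by an unbroken run of pyrimidines, the 5′ terminal oligopyrimidine (TOP) motif, through which mTOR signaling and the protein Larp1 control their translation together. In embryonic stem cells the supply of ribosomes and the rate of protein synthesis are known to matter for self-renewal and for the exit from pluripotency.

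The start regions below are shown because the TOP motif is the sequence feature that these genes are best known to share and that the symbol rule did not use. Each is 30 bases from the RefSeq promoter table (GRCm38.p6), read 5′ to 3′ on the strand of the gene, with the pyrimidine run in capitals, for 3 members with clear differences under SA, for Rpl38, and for Rps6 and Rpl11, which are described below for their roles. The run is taken from its first C, so any T directly before that C is in lower case.
Rpl37a, chr1:72711279-72711308, plus strand: tgcgtCCCTTCCTCTTCggacttgggcttg
Rpl7a, chr2:26910790-26910819, plus strand: caattCCCTCTTCTTTCTTTCTCCagcagc
Rps25, chr9:44407687-44407716, plus strand: ccgggCTTCCTTTTTTTCCgacatcttagc
Rpl38, chr11:114668575-114668604, plus strand: tcgttCTTTCCCCgttctcttcggttctca
Rps6, chr4:86857344-86857373, minus strand: tcgggCCTCTTTTTCgtgacgcctcccagg
Rpl11, chr4:136053355-136053384, minus strand: gaagtCTCCCTCTCTCTTCCTgttctccac
Counted from its first C, the run in Rpl7a is 19 bases long, the run in Rpl11 is 16 and the run in Rpl38 is 8. The first C of the run in Rpl38 is exactly at the annotated start. Relative to that start, with negative values before it, the others begin at -1 in Rps6, -12 in Rpl7a, -22 in Rps25, 14 in Rpl11 and 24 in Rpl37a.

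Of the 76 members, 56 had an entry in the promoter table. A C followed by 7 or more C or T, read on the strand of the gene only, lay within 40 bases of the annotated start in 45 of these 56 members, 80.4%, against 28.5% of all 27025 genes in that table. Within 10 bases of the start it was found in 23 of the 56 members, 41.1%, against 9.43% of all genes. A match says only that these letters lie near the annotated start.

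Levels are given as CPM, the counts of a gene divided by the effective total of its library, which was set by the trimmed mean of M-values (TMM). The assay counts 1 tag near the 3′ end of a transcript, so levels were compared between genes without division by length. The members spanned a 3498-fold range of mean CPM over the 24 libraries, with a median of 603 CPM. Rps20, a protein of the 40S head, was the highest at 4226 CPM, ahead of Rps14 at 3313 CPM and Rpl37 at 3218 CPM. The lowest were Rpl29 at 1.21 CPM, Rps6 at 10.6 CPM and Rpl7a at 16.0 CPM. Rps6, the 40S protein phosphorylated by S6 kinases downstream of mTOR, thus stood far below the median although the proteins are needed in near equal numbers. There were 24 members at 1000 CPM or more and 10 under 100 CPM.

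As a group, the members of lowest level shared more of their 3′ end sequence with transcripts of other genes than those of highest level. Reads that map to several places were discarded before counting. The last 300 bases of each member's transcript were cut into every 50-base stretch, the length of the reads. A median of 56.0% of these stretches also occurred in the transcripts of other genes and in 43 of the 76 members (56.6%) at least 50% did, against 4.77% of the other genes tested. In the 19 members of highest mean CPM the median shared part was 19.5%, and in the 19 of lowest mean CPM it was 63.3%. Rpl7a shared 80.5%, Rps6 83.3% and Rpl29 52.2%, while Rps20 and Rpl37 shared none. Single members departed from this: Rpl36a, at 1091 CPM, shared 100%, and Rpl11, at 97.0 CPM, shared none. Reads that fit a member and another place equally were lost, so the level of such a member is uncertain. Differences between the levels of members therefore cannot be read as differences in mRNA number. The members lay on 19 chromosomes, 4 of them on the X, and their transcripts had a median length of 751 bases against 2569 bases for the other genes tested.

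**Figure D1:**
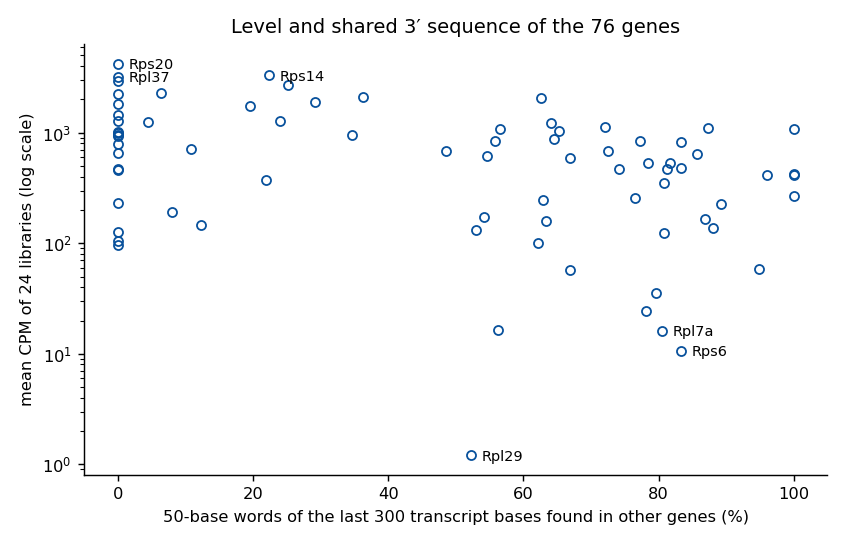
Mean CPM of each of the 76 members over the 24 libraries (log axis) against the percent of 50-base stretches of its last 300 transcript bases that also occur in other genes. Rps20 at 4226 CPM has no shared stretch, and Rps6 at 10.6 CPM and Rpl7a at 16.0 CPM have more than 80% shared.

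Total counts ran from 1857964 to 9069538 per library, and 3 libraries stood apart in these genes: 2iL+SA replicate 3, with 1857964 counts, EpiLC+SA+H replicate 1, with 2131987, and EpiLC replicate 3, with 2883740. Against the mean of the other 3 libraries of its group, on the log2(CPM + 1) scale, each of these shallow libraries had between 19 and 44 members at least 2-fold higher or lower, while the other 21 libraries had between 0 and 9. The direction recurred: 13 members were at least 2-fold lower in all 3 shallow libraries, Rps4x and Rps6 among them, whereas Rps20 was 3813 CPM or less in the other EpiLC libraries and 13066 CPM in EpiLC replicate 3. Because 1 shallow library is an EpiLC control, 1 a 2iL+SA library and 1 an EpiLC+SA+H library, the counts of members called in each comparison and their medians are also given without all 3. The classes of members and the other gene lists were run with all libraries only. Without them, the median standard error of a member's log2 fold change in EpiLC+SA against EpiLC was 0.147 in place of 0.262. The labelled states held up against their markers: the summed level of 7 naive markers was 3551 to 3619 CPM in 2iL and 108 to 615 CPM in EpiLC, and that of 7 primed or formative markers was 107 to 154 CPM in 2iL and 2731 to 3939 CPM in EpiLC.

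The share of all counts that fell on the 76 members was 5.59% to 6.13% in 2iL, with a mean of 5.86% ± 0.224 (SD, n = 4). In EpiLC it was 6.15%, 7.09%, 6.001% and 6.19%, with a mean of 6.36% ± 0.492 (SD, n = 4). In EpiLC+SA it was 7.57%, 8.68%, 5.89% and 8.21%, with a mean of 7.59% ± 1.22 (SD, n = 4). As a share of the raw totals, 3 EpiLC+SA libraries lay above every EpiLC library, and replicate 3 lay below all of them. On TMM-scaled totals replicate 3 stood at 6.73%, within the EpiLC range of 5.95% to 7.18%. In that library 13.5% of counts fell on mitochondrially encoded genes, against 8.31% to 9.30% in the other EpiLC+SA libraries, and its part in the spread was not tested. Without replicate 3 the EpiLC+SA mean was 8.16%. EpiLC+SA+H held 6.95%, 7.22%, 6.78% and 7.24%, a mean of 7.05% ± 0.222 (SD, n = 4), inside the range of EpiLC+SA. This placement depends on the denominator, since on TMM-scaled totals EpiLC+SA+H ran from 6.44% to 7.17%, with 2 libraries below the lowest EpiLC+SA library, and had a mean of 6.75%, beside 8.13% in EpiLC+SA and 6.499% in EpiLC. The treated naive groups stayed near 2iL, with 5.64% ± 0.324 (SD, n = 4) in 2iL+SA and 6.12% ± 0.0965 (SD, n = 4) in 2iL+SA+H. The counts on 60S members were 1.19 to 1.32 times those on 40S members in the 21 deeper libraries, and 1.05 to 1.26 times in the 3 shallow ones.

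**Figure D2:**
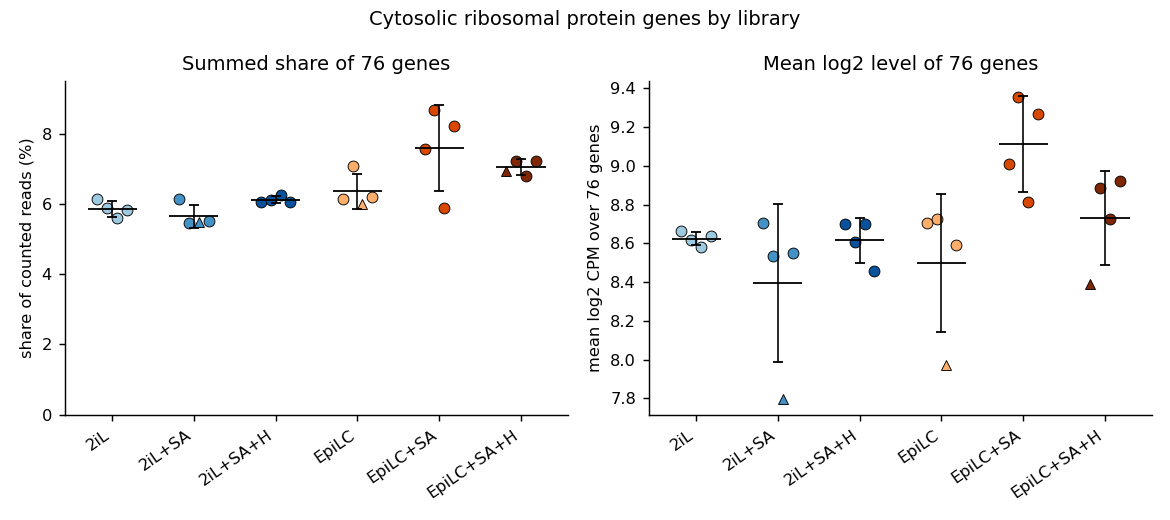
Left, the share of all counts on the 76 members (percent), and right, the mean of their log2 CPM, for each library in the 6 groups, with the 3 shallow libraries as triangles and bars for the mean ± SD of 4 libraries. In EpiLC+SA 3 libraries hold 7.57% to 8.68%, and the shallow libraries have the lowest mean log2 CPM of their groups.

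The main comparison asked what SA did while the cells left the naive state. In EpiLC+SA against EpiLC, 19 members were higher and 0 were lower at an adjusted p under 0.05 (edgeR's quasi-likelihood test, Benjamini-Hochberg adjusted over all genes tested). That is 25% of the members, beside 12.1% of all genes called higher and 15.8% called lower. The log2 fold change was above 0 in 69 of the 76 members and had a median of 0.57, where the median of all genes was 0. The 19 rose between 1.42-fold and 2.69-fold. At an unadjusted p under 0.05, 37 members (48.7%) were higher and none was lower, beside 18.5% and 21.1% of all genes. DESeq2 called 26 members higher (34.2%), all 19 among them, beside 14.2% of all genes.

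Rpl37a, a zinc-binding protein of the 60S subunit, had the smallest adjusted p. Its level was 1212, 757, 489 and 1012 CPM in EpiLC and 1593, 1968, 1623 and 1736 CPM in EpiLC+SA. Every SA library lay above every control library, the shallow control being the lowest of all. The log2 fold change was 1.00 with a standard error of 0.218 (edgeR, Benjamini-Hochberg adjusted p = 0.00133), and 0.80 without the shallow libraries. Only 4.38% of its 3′ stretches were shared with other genes.

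Rpl7a, another 60S protein, was 10.6, 9.27, 13.1 and 9.07 CPM in EpiLC and 19.4, 27.6, 20.0 and 28.9 CPM in EpiLC+SA. The groups did not overlap, at a level that is among the lowest of the members. The log2 fold change was 1.20 with a standard error of 0.293 (edgeR, Benjamini-Hochberg adjusted p = 0.00325). Given its shared 3′ end, reads that fitted its copies equally were lost, and its count rests on the rest.

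Rps25, a 40S protein on which some viral and cellular internal ribosome entry sites depend, was 853, 988, 804 and 749 CPM in EpiLC and 1111, 1354, 1123 and 1389 CPM in EpiLC+SA. Its replicates were the tightest of the members, with a within-group SD of 0.129 on the log2 scale, and the shallow control lay within the range of the other controls. The log2 fold change was 0.55 with a standard error of 0.139 (edgeR, Benjamini-Hochberg adjusted p = 0.00430). None of its 3′ stretches was shared.

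Rpl9, a 60S protein, was 252, 270, 121 and 233 CPM in EpiLC and 351, 440, 408 and 411 CPM in EpiLC+SA. The groups did not overlap with or without the shallow control at 121 CPM. Its log2 fold change was 0.87 with a standard error of 0.224 (edgeR, Benjamini-Hochberg adjusted p = 0.00499). All of its 3′ stretches were shared with other genes.

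**Figure D3:**
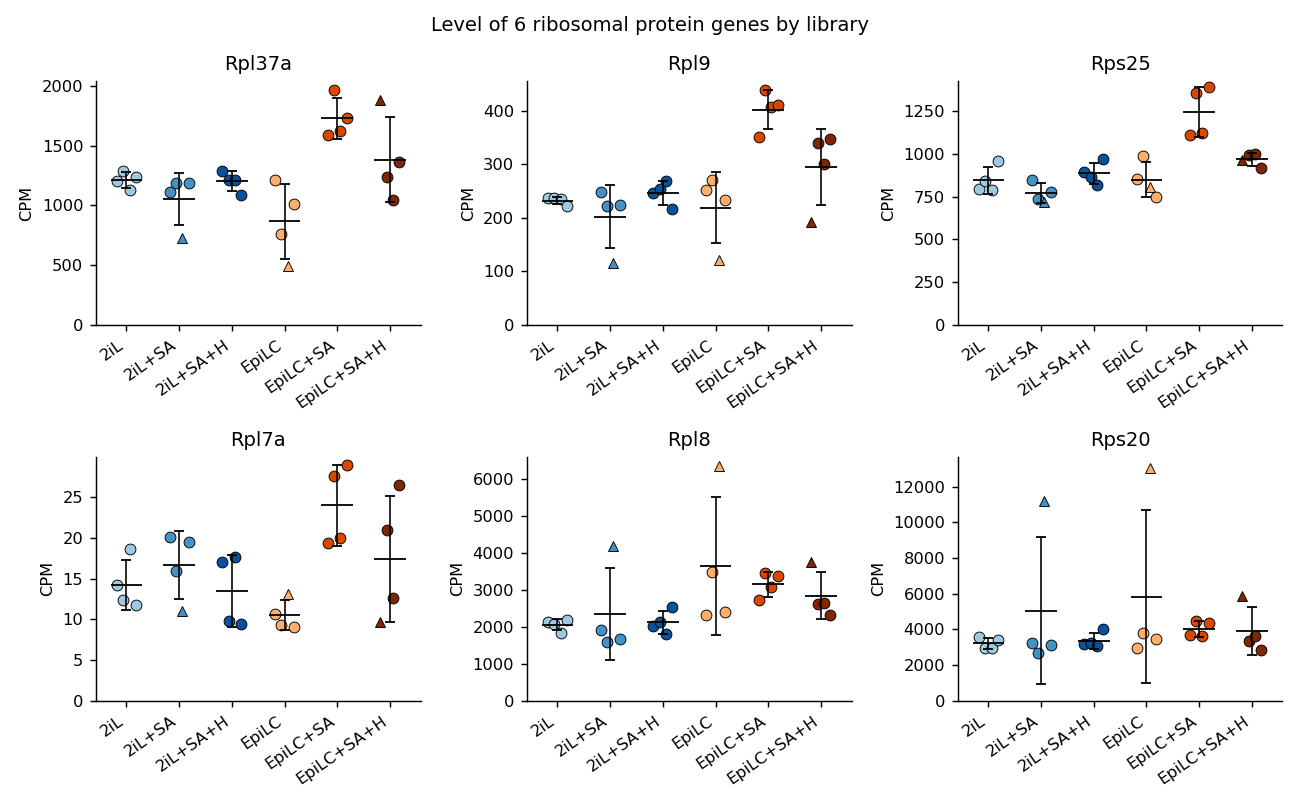
CPM of Rpl37a, Rpl9, Rps25, Rpl7a, Rpl8 and Rps20 in each library of the 6 groups, with the 3 shallow libraries as triangles and bars for the mean ± SD of 4 libraries. Rpl37a, Rpl9, Rps25 and Rpl7a are higher in every EpiLC+SA library than in every EpiLC library, while Rpl8 and Rps20 reach 6340 CPM and 13066 CPM in the shallow EpiLC library.

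Among members named for their roles, the call divided as follows. The P stalk, which recruits elongation factors to the ribosome, is built of Rplp0 with Rplp1 and Rplp2. Rplp0 rose by 0.59 on the log2 scale (edgeR, Benjamini-Hochberg adjusted p = 0.0401), Rplp1 stood at 0.68 (adjusted p = 0.0668) and Rplp2 at 0.11 (adjusted p = 0.667). Rps27a, which is translated as a fusion with ubiquitin, went from 151, 89.5, 38.6 and 100.2 CPM in EpiLC to 208, 286, 177 and 246 CPM in EpiLC+SA. The groups were apart, and it rose by 1.26 on the log2 scale (edgeR, Benjamini-Hochberg adjusted p = 0.0306).

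Rpl38, which in mouse development is needed for translation of a set of Hox mRNAs, rose by 0.51 (edgeR, Benjamini-Hochberg adjusted p = 0.0196). Rps19, the gene most often mutated in human Diamond-Blackfan anemia, rose by 0.72 (adjusted p = 0.0236). Rpl10, among the last proteins to join the 60S subunit, rose by 0.50 (adjusted p = 0.0245). In these 3 the groups overlapped. For Rps19 the EpiLC libraries held 1020, 1261, 652 and 952 CPM and the EpiLC+SA libraries 1108, 1390, 2388 and 1499 CPM, so that the highest value came from EpiLC+SA replicate 3. Of the 18 members whose human genes are listed for Diamond-Blackfan anemia, 4 were higher and 0 lower, with a median of 0.67. Of all 76 members 25% were higher, with a median of 0.57, and of all genes 12.1%.

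Rpl5 and Rpl11, which with the 5S rRNA can bind and hold back Mdm2, did not pass. Rpl11 was 126, 84.8, 23.6 and 100.7 CPM in EpiLC and 168, 180, 164 and 168 CPM in EpiLC+SA. All 4 SA libraries lay above the controls, with a log2 fold change of 1.01 (standard error 0.407, edgeR, Benjamini-Hochberg adjusted p = 0.0657). Without the shallow libraries it was 0.71 and passed (adjusted p = 0.0262). Rpl5 was 1238, 1208, 254 and 956 CPM in EpiLC and 1312, 1645, 1037 and 1460 CPM in EpiLC+SA, a log2 fold change of 0.58 (adjusted p = 0.236).

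Rps6 stood at 1.04 (edgeR, Benjamini-Hochberg adjusted p = 0.148) and Rpl3, which lies close to the peptidyl transferase center, at 0.69 (adjusted p = 0.153). The X-linked Rps4x stood at 0.58 (adjusted p = 0.366), Rpl37 at 0.40 (adjusted p = 0.14), Rpl22 at 0.29 (adjusted p = 0.184), Rps14 at 0.27 (adjusted p = 0.452) and Rpsa at 0.26 (adjusted p = 0.269). Rps20 at -0.53 and Rpl8 at -0.21 were among the 7 members below 0 and neither passed (adjusted p = 0.347 and 0.618).

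The shallow EpiLC library bears on the counts as follows. Without the 3 shallow libraries, 37 members were higher, 48.7%, beside 14.9% of all genes, and 0 were lower at an adjusted p under 0.05, with 1 member, Rpl29, below 0. The 37 include all 19. The median then was 0.42, so that the count grew while the median log2 fold change fell. With every other library in place, leaving out EpiLC replicate 3 alone gave 8 members higher, leaving out EpiLC+SA replicate 2 gave 6 and leaving out EpiLC+SA replicate 4 gave 6. Leaving out any other library gave 14 to 19. Rpl37a, Rpl7a, Rps25, Rpl9 and Rpl12 passed whichever of the 8 libraries was left out, with adjusted p of at most 0.0285, while each of the other 14 lost its call in at least 2 of the 8 (edgeR, Benjamini-Hochberg). Rpl12, a 60S protein at the base of the P stalk, was named after its values were seen. In 15 members (19.7%) the EpiLC+SA libraries all lay above the EpiLC libraries, beside 12.6% of all genes, and 12 of those 15 were among the 19.

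**Figure D4:**
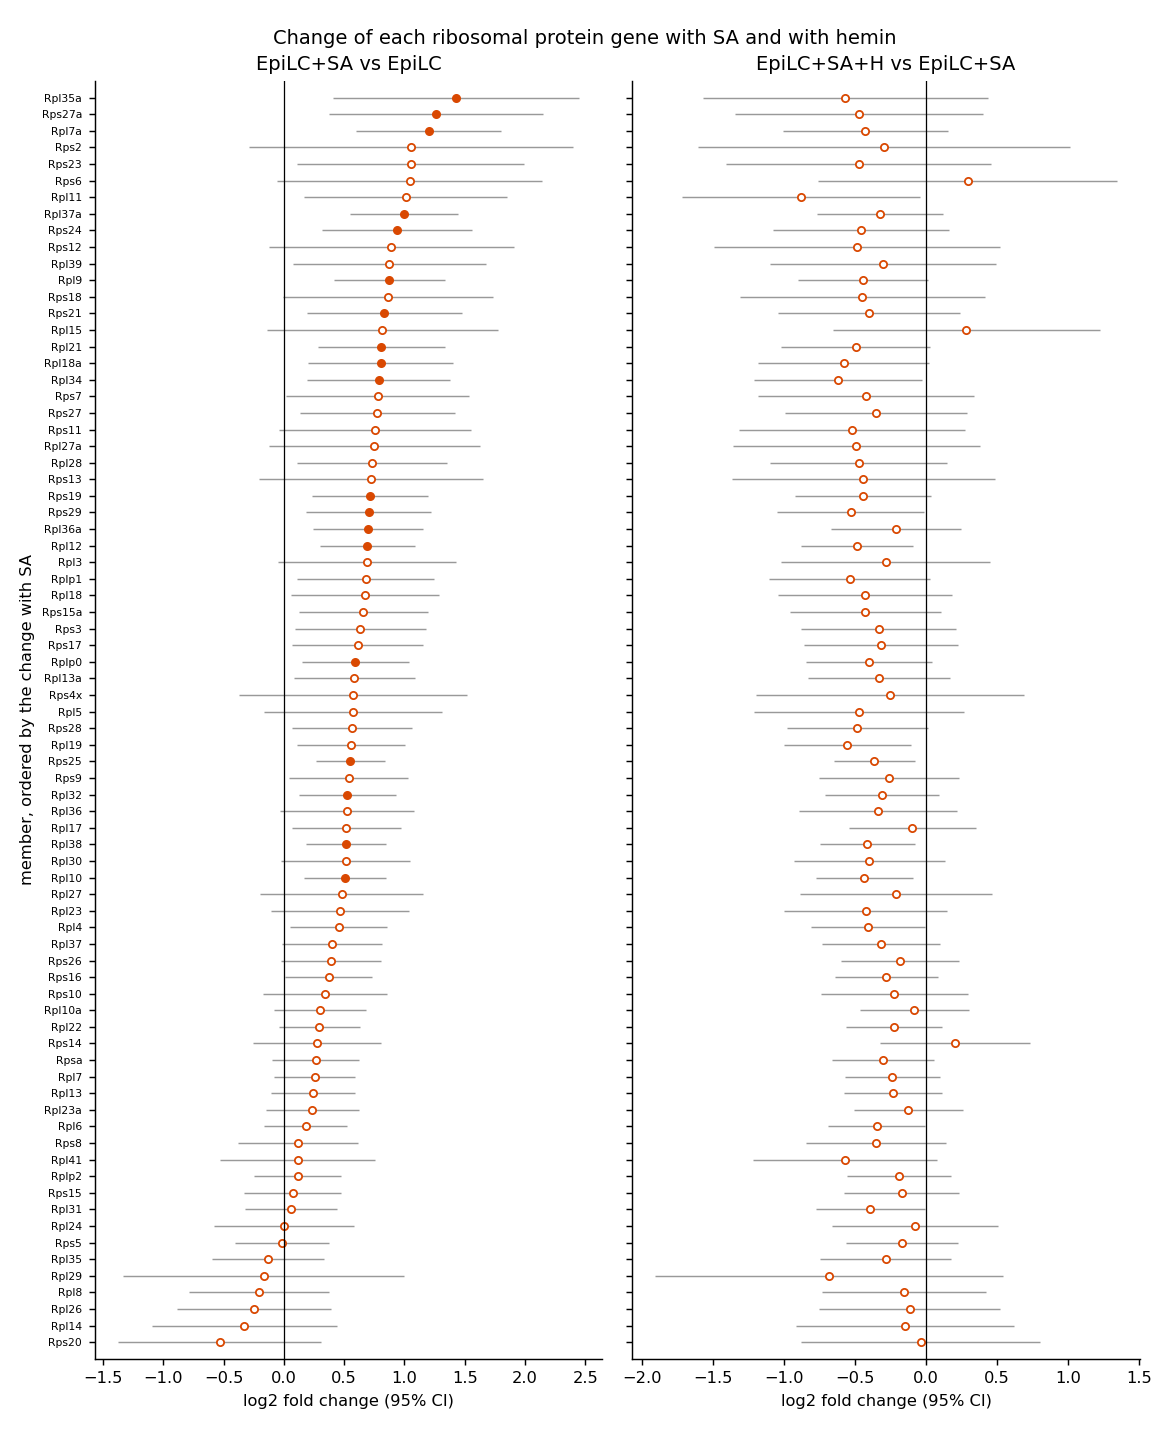
Log2 fold change of each of the 76 members with its 95% confidence interval in the comparison of EpiLC+SA with EpiLC and in that of EpiLC+SA+H with EpiLC+SA, with filled points for members past an adjusted p of 0.05. In the SA comparison 69 members lie above 0 and 19 are filled, and in the hemin comparison 73 lie below 0 and none is filled.

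By class of member, the log2 fold change in EpiLC+SA against EpiLC had a median of 0.52 in the 46 of the 60S, with 13 higher, and of 0.65 in the 30 of the 40S, with 6 higher. Among the 43 members with at least 50% of 3′ stretches shared, 10 were higher, with a median of 0.58. Among the 19 members with none shared, 5 were higher, with a median of 0.58. The 38 members of higher mean CPM had a median of 0.47 and the 38 of lower mean CPM a median of 0.74. With a pyrimidine run near the start the median was 0.66, with 11 of 45 higher, and without one it was 0.57, with 3 of 11 higher. No test was run between these classes.

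Transcript length went with the log2 fold change over all genes. When the genes tested were put into 10 classes by transcript length, the median log2 fold change in EpiLC+SA against EpiLC went from 0.42 in the shortest class to -0.23 in the longest, and 35 of the members were in the shortest class and 29 in the next. Taken relative to the median of its own length class, the median member stood at 0.29 in place of 0.57, and relative to its own class of expression level at 0.53. There were 98 genes other than the members in both the shortest length class and the highest class of expression, and 34 of them were higher (34.7%), with a median of 0.54. Of the 33 members in those same classes 11 were higher (33.3%), with a median of 0.66. The part of transcript length in the result was not tested.

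**Figure D5:**
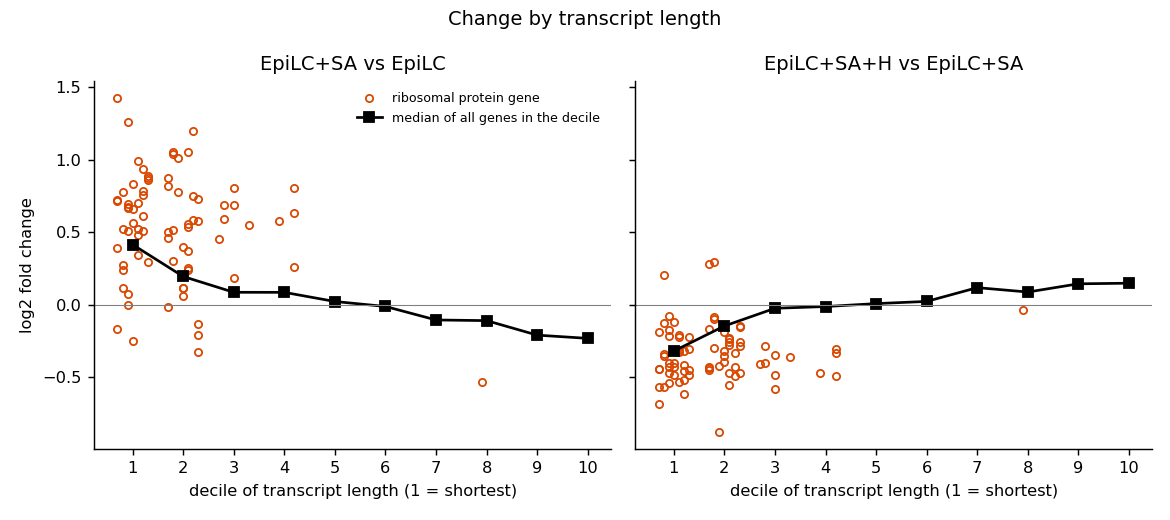
Median log2 fold change of all genes tested in each of 10 classes of transcript length, from shortest to longest, with each member as an open circle, for the SA comparison (left) and the hemin comparison (right). In EpiLC+SA against EpiLC the class medians go from 0.42 to -0.23, and 35 of the members lie in the shortest class and 29 in the next.

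Markers of cell state and of some other cell types differed in the same comparison. The summed naive markers were 606 to 1070 CPM in EpiLC+SA, against 108 to 615 CPM in EpiLC, and the 7 primed or formative markers summed to 871 to 1659 CPM, against 2731 to 3939 CPM, all 7 being called lower. The fibroblast markers, 4 of 5 in the table with none at 0, summed to 9.99 to 19.8 CPM in EpiLC+SA and 1.93 to 6.26 CPM in EpiLC. The 4 neuroectoderm markers summed to 8.02 to 14.6 CPM against 18.7 to 29.8 CPM, and the trophectoderm markers, 4 of 5 in the table, to 14.4 to 37.5 CPM against 9.66 to 31.0 CPM, which overlapped. The 5 primitive endoderm markers summed to 3.40 to 15.5 CPM against 1.16 to 13.2 CPM, which also overlapped, with 1 of the 5 at 0 in each of the 2 groups. Mitochondrially encoded genes took a mean of 9.97% of counts in EpiLC+SA and 6.74% in EpiLC. Their part in the result was not tested.

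Of 87 ribosome biogenesis factors, 1 was higher and 24 were lower in EpiLC+SA than in EpiLC, with a median of -0.30. In 2iL+SA against 2iL none of the 87 passed (edgeR), but 80 were below 0, 42 had an unadjusted p under 0.05, and the median was -0.40. Lists described below leaned the same way there, with none passing. Below 0 were 67 of 76 mitochondrial ribosomal protein genes, 34 of 38 proteasome subunit genes and 15 of 17 polymerase I genes. Their medians were -0.297, -0.300 and -0.304. For the 87, the difference between the states had a median of 0.046, with 5 higher and 2 lower, beside 5.27% and 9.06% of all genes. In EpiLC+SA against EpiLC, Utp3, of the small subunit processome, fell by 1.37 on the log2 scale (edgeR, Benjamini-Hochberg adjusted p = 6.29e-05). Rrp1b, a nucleolar rRNA processing factor, fell by 1.36 (adjusted p = 1.56e-05). Nop10, of the box H/ACA particles that guide pseudouridylation, rose by 0.89 (adjusted p = 0.0163).

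Of 17 genes for RNA polymerase I and its factors, which transcribe the large rRNA precursor, 2 were higher and 5 lower, with a median of -0.25. The shares of all genes were 12.1% higher and 15.8% lower. The polymerase I subunit genes Cd3eap and Twistnb fell by 2.36 and 1.46 on the log2 scale (edgeR, Benjamini-Hochberg adjusted p = 2.1e-06 and 1.38e-06). Polr1d, whose product polymerases I and III share, rose by 1.00 (adjusted p = 0.00843), and Taf1d, of the selectivity factor SL1, rose by 0.88 (adjusted p = 0.0339).

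Among 23 other mRNAs known to carry a TOP motif, mostly for translation factors, 6 were higher and 1 lower, with a median of 0.17. The shares of all genes were 12.1% higher and 15.8% lower. Eif4a2, an initiation factor helicase, rose by 1.40 (edgeR, Benjamini-Hochberg adjusted p = 0.000493) and Vim, the filament protein vimentin, by 0.99 (adjusted p = 0.00383), while Eif3a fell by 0.55 (adjusted p = 0.00951). Of 9 paralogs of ribosomal protein genes only Rps27l passed, at 0.76 (adjusted p = 0.0070). Gnb2l1, which encodes RACK1, stood at 0.47 and Fau, whose 40S protein is fused to a ubiquitin-like protein, at 0.025, and neither passed (adjusted p = 0.147 and 0.951).

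Other large complexes were set beside these, again with 12.1% of all genes higher and 15.8% lower. Of 76 mitochondrial ribosomal protein genes, 8 were higher and 9 lower, with a median of 0.054, and of 38 proteasome subunit genes, 5 were higher and 4 lower, with a median of 0.063. Of 158 tested pseudogene entries named for a ribosomal protein gene, 11 were higher and 1 lower, with a median of 0.41.

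In EpiLC+SA+H against EpiLC+SA, which asks what hemin returned, the members leaned the other way without passing the test. The log2 fold change was below 0 in 73 of the 76 members, with a median of -0.35 where the median of all genes was 0.0054. The shortest length class of all genes was at -0.32. The 98 other genes in the shortest length and highest expression classes were at a median of -0.37, with 12 lower, and the 33 members in those classes at -0.40, with 0 lower. At an adjusted p under 0.05, 0 members were higher and 0 lower (edgeR, Benjamini-Hochberg), beside 10.5% of all genes higher and 5.95% lower. At an unadjusted p under 0.05, 11 were lower (14.5%) and none higher, beside 12.9% and 17.4% of all genes. DESeq2 called 4 lower (5.26%), beside 8.2% of all genes. This comparison uses the EpiLC+SA libraries of the previous one, so that the opposite sign is in part fixed by what they share.

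Rpl10 came nearest to the threshold, at -0.43 (edgeR, Benjamini-Hochberg adjusted p = 0.0743). It held 484, 713, 423 and 629 CPM in EpiLC+SA and 326, 484, 391 and 464 CPM in EpiLC+SA+H, and the groups overlapped. Rps25 held 964, 994, 997 and 917 CPM in EpiLC+SA+H, below every EpiLC+SA library and in part above the EpiLC range of 749 to 988 CPM. Its log2 fold change was -0.36 (adjusted p = 0.0744).

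Rpl37a, at 1880, 1239, 1049 and 1365 CPM in EpiLC+SA+H, overlapped with EpiLC+SA, where the highest value came from the shallow library, and its log2 fold change was -0.32 (edgeR, Benjamini-Hochberg adjusted p = 0.332). Rpl11 was 52.7, 86.9, 82.2 and 145 CPM in EpiLC+SA+H, all below EpiLC+SA, at -0.88 (adjusted p = 0.145). Rpl9 was 193, 339, 300.1 and 347 CPM, also all below, at -0.45 (adjusted p = 0.178).

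In 10 members (13.2%) all EpiLC+SA+H libraries lay below the EpiLC+SA libraries, beside 9.14% of all genes. Without the shallow libraries 12 members were lower, 15.8%, beside 9.54% of all genes, 0 were higher, and the median was -0.28. Leaving out EpiLC+SA replicate 3 alone gave 2 lower, and EpiLC+SA+H replicate 1 alone gave 1. Of the 12, Rps19 fell by 0.72 (edgeR, Benjamini-Hochberg adjusted p = 0.00354), Rplp0 by 0.52 (adjusted p = 0.0159) and Rpl37a by 0.49 (adjusted p = 0.00872). For Rps19, EpiLC+SA+H replicate 1, the shallow library, held 1807 CPM and the other 3 held 878 to 1019 CPM.

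In EpiLC+SA+H the naive markers summed to 464 to 1258 CPM, the primed or formative markers to 1281 to 3597 CPM and the fibroblast markers to 4.31 to 9.61 CPM, and mitochondrially encoded genes took a mean of 7.84% of counts. Their part in the result was not tested.

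With hemin the other gene groups went as follows. Of all genes 10.5% were higher and 5.95% lower. Of the 87 biogenesis factors 9 were higher and 4 lower, near those shares. Utp3 rose by 1.12 and Nop2, an rRNA methyltransferase, by 0.89 (edgeR, Benjamini-Hochberg adjusted p = 0.00091 and 0.00253). Tcof1 fell by 0.64 (adjusted p = 0.0111) and Nat10, an RNA acetyltransferase, by 0.62 (adjusted p = 0.0357). Of the 17 polymerase I genes 4 were higher and 1 lower, with Cd3eap at 1.84 (adjusted p = 8.37e-05), Twistnb at 1.14 (adjusted p = 5.84e-05) and Taf1d at -1.10 (adjusted p = 0.0152). None of the 23 other TOP mRNAs passed in edgeR, 3 having an unadjusted p under 0.05, and their median was -0.22. Rps27l fell by 0.64 (adjusted p = 0.0304).

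EpiLC+SA+H was also set against EpiLC. The median member stood at 0.21, with 61 of 76 above 0, and at 0.13 without the shallow libraries, with 53 above 0. Then 0 members were called, beside 0.685% of all genes higher and 0.6% lower. Leaving out single libraries moved the median from 0.092, without EpiLC replicate 3, to 0.35, without EpiLC replicate 2. With edgeR 0 members were higher and 0 lower at an adjusted p under 0.05, beside 0.0436% and 0.0187% of all genes. With DESeq2 0 were called, beside 0.461% of all genes higher and 0.469% lower. At an unadjusted p under 0.05, 5 members (6.58%) were higher, beside 5.46% of all genes. Rpl37a came nearest, at 0.67 with a 95% confidence interval from 0.23 to 1.12 (edgeR, Benjamini-Hochberg adjusted p = 0.258). A p that misses the threshold does not show that the groups were alike.

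Exit from the naive state without SA was compared in EpiLC against 2iL. The median member was at -0.045 against 0.0041 for all genes, with 33 of 76 above 0. Without the 3 shallow libraries the median turned to 0.11, with 52 of 76 above 0, and with single libraries left out it ran from -0.18, without EpiLC replicate 2, to 0.086, without EpiLC replicate 3, so the members as a whole showed no stable direction. There were 2 members higher and 0 lower (edgeR, Benjamini-Hochberg, adjusted p under 0.05), while 15% of all genes were higher and 13.4% lower. At an unadjusted p under 0.05, 9 were higher (11.8%) and 2 lower (2.63%), beside 20.6% and 18.6% of all genes. DESeq2 called 8 higher (10.5%) and 1 lower (1.32%), beside 18.1% and 14% of all genes.

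The 2 were Rpl8, which lies near the peptidyl transferase center, and Rps15, a protein of the 40S head. Rpl8 was 2135, 2081, 1827 and 2176 CPM in 2iL and 2329, 3475, 6340 and 2408 CPM in EpiLC, and the groups did not overlap. Its log2 fold change was 0.82 (standard error 0.283, edgeR, Benjamini-Hochberg adjusted p = 0.0300), and without the shallow libraries 0.41 (adjusted p = 0.0253). Rps15 was 704, 608, 596 and 779 CPM in 2iL and 724, 994, 1387 and 768 CPM in EpiLC, which overlapped. Its log2 fold change was 0.53 (standard error 0.197, adjusted p = 0.0463).

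In both genes the highest library was the shallow EpiLC replicate 3. The count of 2 rested on single libraries: it was 0 without EpiLC replicate 3 or any of 2iL replicates 1 to 3, 1 without 2iL replicate 4 or EpiLC replicate 2, and 6 without EpiLC replicate 1 or EpiLC replicate 4. Without EpiLC replicate 1, 2 members were lower. Without the 3 shallow libraries 5 members were higher (6.58%), beside 16.5% of all genes, and 1 of the 5, Rpl8, was among the 2. Rpsa, the 40S protein also known as the laminin receptor precursor, was another of the 5, at 0.42 (edgeR, Benjamini-Hochberg adjusted p = 0.0278). Its levels were 336 to 430 CPM in 2iL and 450 to 676 CPM in EpiLC, so the groups did not overlap, but over all libraries it did not pass, at 0.43 (adjusted p = 0.0687).

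Of the other groups, 11 of the 87 biogenesis factors were higher and 1 lower in EpiLC, with a median of 0.15. Beside them, 15% of all genes were higher and 13.4% lower. Gnl2 and Surf6, both nucleolar, rose by 0.59 and 0.66 (edgeR, Benjamini-Hochberg adjusted p = 0.00436 and 0.00453), and Tcof1 fell by 0.57 (adjusted p = 0.0146). Of the 23 other TOP mRNAs 3 were higher and 2 lower. Among the higher, Eef2, the elongation factor that drives translocation, and Nap1l1, a histone chaperone, rose by 1.03 and 0.61 (edgeR, Benjamini-Hochberg adjusted p = 0.00174 and 0.0256). Vim and Eif4a2 fell by 2.05 and 0.82 (adjusted p = 7.81e-07 and 0.0256). Rrn3, the polymerase I initiation factor, rose by 0.85 (adjusted p = 0.0128), Ttf1, its termination factor, fell by 0.50 (adjusted p = 0.0322), and Rpl3l, a paralog known from striated muscle, rose by 1.15 (adjusted p = 0.0465).

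In cells held in the naive state, SA was followed by no call. In 2iL+SA against 2iL 0 members were higher and 0 lower (edgeR, Benjamini-Hochberg, adjusted p under 0.05), beside 0.0249% and 0.0249% of all genes. DESeq2 called 0 members, beside 1.49% of all genes higher and 0.8% lower. At an unadjusted p under 0.05, 1 member was higher and 1 lower, beside 7.16% and 5.58% of all genes. Over all 16067 genes the adjusted edgeR calls were 4 higher and 4 lower, so that their share higher, 50%, rests on few calls. With DESeq2's size factors in edgeR that share was 80%, and the median of all genes was 0.072 in place of 0.035. The median member stood at -0.18, against 0.035 for all genes, and at -0.047 without the shallow libraries. Again 0 members were then called, beside 0.306% of all genes higher and 0.337% lower. Rpl37a was 1205, 1286, 1128 and 1238 CPM in 2iL and 1116, 1187, 726 and 1186 CPM in 2iL+SA, where the lowest value came from the shallow library. Rps25 was 792, 840, 791 and 955 CPM in 2iL and 847, 734, 720 and 778 CPM in 2iL+SA, which overlapped.

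In 2iL+SA+H against 2iL+SA, 0 members were higher and 0 lower, beside 0% of all genes in either direction (edgeR, Benjamini-Hochberg). DESeq2 called 0, beside 0% of all genes higher and 0.00623% lower. None had an unadjusted p under 0.05, beside 2.3% and 2.29% of all genes. The median member was at 0.21, and at 0.066 without the shallow libraries, with 0 called, beside 0.00612% of all genes higher and 0% lower. In 11 members (14.5%) the 2iL+SA+H libraries all lay above the 2iL+SA libraries, beside 2.06% of all genes, Rplp0 being one at 549 to 680 CPM against 331 to 518 CPM. In 2iL+SA+H against 2iL the median was 0.020, and 0.028 without the shallow libraries, and 0 members were higher and 0 lower, beside 0% and 0.00622% of all genes (edgeR, Benjamini-Hochberg). There 1 member (1.32%) was higher at an unadjusted p under 0.05, beside 3.34% of all genes. DESeq2 called 0, beside 0.0125% of all genes higher and 0.0249% lower. Without the shallow libraries edgeR called 0, beside 0% and 0.0184%.

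Whether the response to SA differed between the states was tested as the difference between its log2 fold changes, EpiLC minus 2iL. In 6 members it was higher and in 0 lower (edgeR, Benjamini-Hochberg, adjusted p under 0.05), beside 5.27% and 9.06% of all genes. Of the 933 genes at or above the first quartile of the members' expression, 15.1% were called higher, against 10.5% of the 57 members there. Of the 98 other genes in the shortest length and highest expression classes 16.3% were higher, with a median of 0.69, against 6.06% of the 33 members in those classes. The median difference was 0.81, against -0.050 for all genes, and 65 members were above 0. At an unadjusted p under 0.05, 38 members (50%) were higher, beside 12.8% of all genes. DESeq2 called 15 higher (19.7%), all 6 among them, beside 7.03% of all genes. The 6 were Rpl37a at 1.20 (adjusted p = 0.0105), Rpl38 at 0.80 (adjusted p = 0.0205), Rps25 at 0.68 (adjusted p = 0.0207), Rpl9 at 1.07 (adjusted p = 0.0248), Rpl12 at 0.84 (adjusted p = 0.0381) and Rplp0 at 0.89 (adjusted p = 0.0481).

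Both shallow libraries of this test, EpiLC replicate 3 and 2iL+SA replicate 3, enter on sides that raise the difference where they are low. Without the 3 shallow libraries 9 members (11.8%) were higher, 5 of the 6 among them, beside 6.21% of all genes. All 76 differences were then above 0, and the median was 0.44. Leaving out single libraries gave 2 members higher without EpiLC+SA replicate 4, 3 without 2iL replicate 4 and 10 without either EpiLC replicate 1 or EpiLC replicate 2, and 4 to 8 otherwise. Rpl37a and Rpl9 passed in each of these 16 fits, Rpl38 in 15, Rps25 in 14, Rpl12 in 4 and Rplp0 in 1. The difference of the hemin responses, EpiLC minus 2iL, was called higher in 0 members and lower in 0 (edgeR, Benjamini-Hochberg), beside 4.57% and 1.76% of all genes. Its median was -0.51, with 13 members (17.1%) lower at an unadjusted p under 0.05, beside 8.76% of all genes. DESeq2 called 3 lower (3.95%), beside 3.64% of all genes. Without the shallow libraries 6 were lower (7.89%), beside 4.96% of all genes, and the median was -0.34. Leaving out EpiLC+SA+H replicate 1 alone gave 1 lower.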

How the data were processed

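RNA was measured by QuantSeq 3′ sequencing with single-end reads of 50 bases. Per the labels and the study's methods, the authors checked reads with FastQC 0.11.7, trimmed them with fastq-mcf, aligned them to mm10 by HISAT2, dropped those with several alignments, and handled the alignments with SAMtools 1.5 and counted reads per gene with HTSeq, given as version 2.7.14. The annotation and the strand setting are not given in the sources used here. The deposited values are whole-number counts per symbol for 24 libraries. A read that fits a member and its copy equally was lost, and without the strand setting overlapping antisense genes cannot be set apart.

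The members and gene lists were chosen with earlier results of these data known. In R 4.3.3, edgeR 4.0.16 with limma 3.58.1 filtered genes (filterByExpr, minimum count 5), scaled libraries by TMM and fitted all 6 groups together with robust quasi-likelihood tests, Benjamini-Hochberg adjusted over 16067 genes in each of 9 comparisons. DESeq2 1.42.0, other filters and scalings, a replicate block, the compared groups alone, and leaving out each library or the 3 shallow ones were alternatives. The fit was tested on simulated data.

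CPM are TMM-scaled. The mean log2 CPM and the within-group SD use log2 CPM with a prior count of 2, and log2 fold changes use edgeR's default prior count. Transcript lengths and 3′ ends came from GENCODE annotation of GRCm38, starts from RefSeq (GRCm38.p6). Total counts of 1857964 to 9069538 set the precision of low members. Members named were the 4 of smallest adjusted p per direction in each comparison, the 3 highest and 3 lowest by mean CPM, and 14 chosen for their roles. Others were named after their values were seen. From the other gene lists up to 2 passing genes per direction were named.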

Additional observations from a re-analysis of the deposited data

Results flagged for a closer look

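Within groups of 4 libraries, 150 sets of values were looked at for a library far from the other 3, by its gap relative to the whole range, and 13 stood out, where chance alone would give about 1 in 20. Of these 13, 9 were in the 3 shallow libraries. In 2iL+SA replicate 3 these were Rpl37a at 726 CPM (1116 to 1187 in the other 3), Rpl37 at 1578 CPM (2663 to 2871), Rplp0 at 331 CPM (494 to 518), Rpl3 at 70.9 CPM (222 to 237), Rpl8 at 4196 CPM (1597 to 1899) and Rps20 at 11210 CPM (2658 to 3201). Rps20 was also far from the others in EpiLC replicate 3, at 13066 CPM (2950 to 3813). In EpiLC+SA+H replicate 1, Rps14 was at 8640 CPM (2843 to 3128) and Rps19 at 1807 CPM (878 to 1019).

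In deeper libraries, the summed share of counts was 6.13% in 2iL+SA replicate 1 (5.46% to 5.50% in the other 3). Rpl9 was at 221 CPM in 2iL replicate 4 (235.9 to 236.2), Rpl22 at 1355 CPM in 2iL replicate 1 (1145 to 1164) and Rplp1 at 412 CPM in 2iL+SA+H replicate 4 (564 to 590).

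The response to SA was called different between the EpiLC and 2iL states in 6 members (7.89%), all higher, beside 5.27% of all genes. At like expression it was 10.5% of the members and 15.1% of all genes. The log2 differences were 1.20 for Rpl37a, 0.80 for Rpl38, 0.68 for Rps25, 1.07 for Rpl9, 0.84 for Rpl12 and 0.89 for Rplp0. With single libraries left out, Rpl12 passed in only 4 and Rplp0 in only 1 of the 16 fits.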

How the results depend on the processing

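The counts of members called varied with the processing, and where no cause is named the cause was not tested. For EpiLC+SA against EpiLC the count of 19 higher became 12 without the filter on low counts, 12 with only the groups compared, 37 once the 3 shallow libraries were dropped and 29 with the replicate block, and 6 to 19 when single libraries were left out, and the median became 0.29 relative to genes of like length. For EpiLC against 2iL the count of 2 higher became 8 with DESeq2, 1 without the filter, 1 with the replicate block, 5 once the shallow libraries were dropped and 1 in a fit of these groups alone, and 0 to 6 with single libraries left out. The count of 0 lower became 1 with DESeq2, 1 with the replicate block and 2 with only the groups compared, and 0 to 2 with single libraries left out. For EpiLC+SA+H against EpiLC+SA the count of 0 lower became 4 with DESeq2, 12 once the shallow libraries were dropped and 2 in a fit of these groups alone. For the difference of SA responses the count of 6 became 15 with DESeq2, 3 without the filter, 10 with a minimum count of 10 and 19 with the replicate block, and 2 to 10 with single libraries left out, and its median became 0.44 without the shallow libraries and 0.49 relative to length. For the difference of hemin responses the count of 0 lower became 3 with DESeq2 and 6 without the shallow libraries, and the median became -0.23 relative to length. In EpiLC+SA against EpiLC, Rpl8 and Rps15, which were not called, changed sign. Rpl8, at -0.21, was at 0.20 once the shallow libraries were dropped and ran from -0.37 to 0.20 when single libraries were left out, the highest being without EpiLC replicate 3. Rps15, at 0.073, ran from -0.042 to 0.30 when single libraries were left out, and was -0.042, -0.022 and -0.026 without EpiLC replicate 1, EpiLC replicate 4 and EpiLC+SA replicate 4. The replicate numbers were not taken to pair libraries. Same-numbered libraries of EpiLC and EpiLC+SA correlated at 0.060 to 0.162 in their deviations, each best with its own number (4 of 4), as a hint from the data. In 2iL+SA against 2iL and in EpiLC+SA+H against EpiLC 3 of 4 were best with their own number. The exceptions were the shallow 2iL+SA replicate 3 and EpiLC+SA+H replicate 1. In the remaining comparisons 0 to 2 of 4 were, and some pairs were negative in every comparison but EpiLC+SA against EpiLC. Depth limits the lowest members, Rpl29 at 1.21 CPM and Rps6 at 10.6 CPM.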
